A study of Homo sapiens with 6 samples.

Results

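The 9 genes described here encode proteins that bundle actin filaments or tie them to the cell membrane: the plastins LCP1, PLS1 and PLS3, the fascin FSCN1, the ERM proteins EZR, RDX and MSN, and the alpha-actinins ACTN1 and ACTN4. They were taken by symbol from a table of 69292 Ensembl gene IDs, all 9 were found, and all 9 were among the 21223 genes with enough counts to test. The group was chosen by the level of LCP1 in the ridaforolimus-resistant line, where it was higher, so that level is a description and not a finding. The cells were MDA-MB-231, a mesenchymal, triple-negative breast cancer cell line, sequenced as 6 libraries in 3 groups of 2. The ridaforolimus-resistant line had been grown for months in 30 µM ridaforolimus and the everolimus-resistant line in 20 µM everolimus. Parental cells received no drug per the protocol, although 1 label field gives DMSO as their treatment. Both drugs are analogs of rapamycin, which inhibits the kinase mTOR, and the title of the study asks about resistance to such inhibitors. Each resistant line is represented by 1 derivative at its own concentration, so the effects of line, drug and concentration cannot be told apart. The labels do not say whether the 2 libraries of a group came from separate cultures, so p-values measure only the spread between these libraries, which may be technical.

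Actin filaments are held in tight parallel bundles by plastins (also called fimbrins) and fascin, which give shape to microvilli and filopodia, while alpha-actinins join filaments more loosely in stress fibres and at focal adhesions. Ezrin, radixin and moesin, the products of EZR, RDX and MSN, switch between a folded and an open form, and the open form links membrane proteins such as CD44 to the actin cortex. LCP1, or L-plastin, is normally a protein of leukocytes but is also made by many carcinoma cells. PLS3, or T-plastin, is the usual plastin of solid tissues, and PLS1, or I-plastin, is known from the microvilli of the intestine and the stereocilia of the inner ear.

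Total counts lay between 13134567 and 15556246 per library. Levels are CPM, counts scaled to a common library size with edgeR's TMM factors, and fold changes are log2 values ± the standard error from a fit with edgeR to all 6 libraries. Both resistant lines were set against the same 2 parental libraries, and the direct comparison of the lines uses the libraries of both again. On the first principal component, which held 36.1% of the variance, the ridaforolimus libraries stood at 36.4 and 73.2 and the other 4 between -33.7 and -22.1. Markers of MDA-MB-231 cells (VIM, CD44, AXL, CAV1 and S100A4) summed to between 2325 and 2545 CPM in the ridaforolimus line, between 1795 and 3011 CPM in the everolimus line and between 1737 and 1908 CPM in parental cells. The largest part was AXL, with 996 to 1558 CPM over the 6 libraries, while S100A4 had only 5.26 to 18.0 CPM and added little. The receptor and epithelial genes ESR1, PGR and CDH1, which these cells are known to lack, summed to between 0.58 and 1.2 CPM over the 6 libraries.

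Among the plastins, LCP1 had 121 and 108 CPM in the ridaforolimus line, 22.7 and 37.5 CPM in the everolimus line and 66.6 and 52.5 CPM in parental cells. The 3 groups did not overlap, with the ridaforolimus libraries highest and the everolimus libraries lowest. LCP1 lies on the minus strand of chromosome 13 (chr13:46125920-46211871, GENCODE 29, GRCh38). Its mean was 115 ± 9.09 CPM in the ridaforolimus line, 30.1 ± 10.5 CPM in the everolimus line and 59.5 ± 10.0 CPM in parental cells (SD, n = 2 each). In the ridaforolimus line over parental cells LCP1 differed by 0.95 ± 0.26 on the log2 scale, or 1.93-fold, which is taken as the value that led to the choice of these genes. The choice named the ridaforolimus line without naming what it was set against, and parental cells were taken as that reference here. The everolimus line differed from parental cells by -0.98 ± 0.27 (95% interval -1.59 to -0.37), with an adjusted p of 0.423 in edgeR's quasi-likelihood test. Before adjustment that p was 0.00575 in edgeR's test over all genes, so the lower LCP1 of the everolimus line did not pass over the 21223 genes tested. Between the lines, the ridaforolimus line over the everolimus line, the difference was 1.93 ± 0.27. In bulk RNA, fewer cells with a transcript and less of it per cell cannot be told apart.

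Because LCP1 is known from leukocytes, leukocyte markers were read beside it. Of 12 such markers 3 had enough counts to test, and CD3E and MS4A1 were at 0 in all 6 libraries. Their summed level was 94.0 to 101 CPM in the ridaforolimus line, 107 to 152 CPM in the everolimus line and 81.6 to 113 CPM in parental cells. Nearly all of it was LAPTM5, a lysosomal membrane protein, with 90.8 and 97.5 CPM in the ridaforolimus line, 149 and 102 CPM in the everolimus line and 107 and 77.6 CPM in parental cells. PTPRC, which encodes the defining leukocyte antigen CD45, was between 0 and 0.511 CPM.

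The promoter of LCP1 is shown because this gene led to the choice of the group. RefSeq's promoter table (GRCh38.p14) holds 250 bases before and 50 after a transcription start, and 8 of the 9 genes matched it, all but FSCN1. The LCP1 entry, chr13:46182128-46182427 on the minus strand, lies within the gene's span in GENCODE 29. It is written 5′ to 3′ along the gene, and capitals mark motif matches on either strand. The TATA box was searched for as TATAAA. The letters of the ETS core, a site of ETS factors, were GGAAGT. Those of the GC box, a site of Sp factors, were GGGCGG, and no matches overlapped in this window.
LCP1: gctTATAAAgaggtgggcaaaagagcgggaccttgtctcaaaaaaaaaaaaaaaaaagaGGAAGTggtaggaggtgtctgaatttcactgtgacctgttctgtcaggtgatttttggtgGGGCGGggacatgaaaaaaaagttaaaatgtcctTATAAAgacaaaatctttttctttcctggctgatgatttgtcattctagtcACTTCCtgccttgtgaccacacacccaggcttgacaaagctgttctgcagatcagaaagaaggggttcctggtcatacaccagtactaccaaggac
The window held 2 TATA matches, 2 ETS core matches and 1 GC box, and 42.7% of its bases were G or C. Among all 35116 promoters of the table, 11.5% held the TATA box, 22.8% the ETS core and 45.0% the GC box, and the median GC content was 58.7%, with a lower quartile of 47.0%. The AP-1 site TGACTCA was not found in it on either strand, nor was the TEAD site GGAATG or the CArG box of serum response factor. These 3 motifs occur in 4.95%, 14.0% and 1.29% of all promoters. Motif matches are letters in a window and say nothing about the binding of a factor.

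PLS3, on the plus strand of chromosome X (chrX:115561174-115650861), had 65.6 and 60.2 CPM in the ridaforolimus line, 69.7 and 102 CPM in the everolimus line and 92.7 and 104 CPM in parental cells. Both ridaforolimus libraries were below every other library, while the everolimus and parental libraries overlapped. The difference of the ridaforolimus line from parental cells was -0.64 ± 0.22 on the log2 scale. For the everolimus line it was -0.19 ± 0.22 (adjusted p = 0.848, edgeR's quasi-likelihood test), and without everolimus replicate 1 it was 0.06. Directly between the lines, PLS3 stood at -0.45 ± 0.22 in the ridaforolimus line over the everolimus line (adjusted p = 0.422, edgeR).

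PLS1, the least abundant of the 9 genes, had 39.5 and 30.3 CPM in the ridaforolimus line, 17.5 and 24.8 CPM in the everolimus line and 28.2 and 35.2 CPM in parental cells. The ridaforolimus and parental libraries overlapped, and both everolimus libraries were lowest. PLS1 lies on the plus strand of chromosome 3 (chr3:142596387-142713664). Its log2 fold change over parental cells was 0.14 ± 0.25 in the ridaforolimus line, where leaving out ridaforolimus replicate 1 gave -0.08 and parental replicate 1 gave -0.02. The everolimus line gave -0.59 ± 0.26 (adjusted p = 0.566, edgeR's quasi-likelihood test). Directly between the lines it was 0.72 ± 0.26, the ridaforolimus line over the everolimus line, with an adjusted p of 0.262 in edgeR's test.

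**Figure D1:**
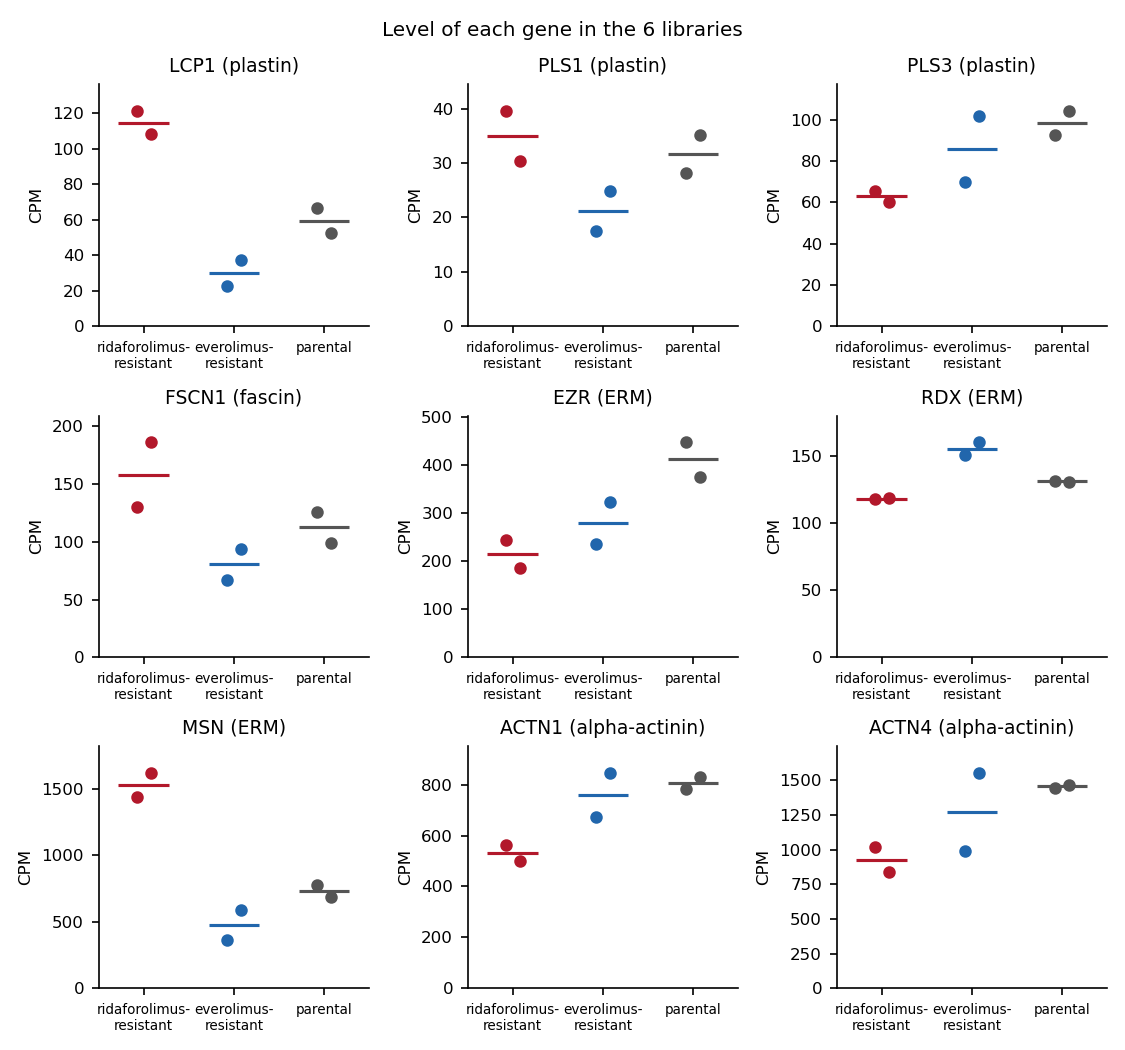
Level of each of the 9 genes (CPM, vertical axis from 0) in the ridaforolimus-resistant, everolimus-resistant and parental libraries; points are libraries and lines are means of 2. LCP1 and MSN show 3 separate groups, with the ridaforolimus line highest and the everolimus line lowest, while EZR is lower in both resistant lines than in parental cells.

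The make-up of the plastin family differed between the groups. With CPM divided by the length of each gene's exons in kb, LCP1 made up 50.9 ± 0.495% of plastin transcripts in the ridaforolimus line, 19.1 ± 1.34% in the everolimus line and 28.2 ± 5.30% in parental cells (SD, n = 2 each). PLS3 made up 34.4 ± 0.99% in the ridaforolimus line, 67.9 ± 0.919% in the everolimus line and 57.4 ± 3.32% in parental cells. LCP1 was thus the leading plastin in the ridaforolimus line, and PLS3 led in the everolimus line and in parental cells. PLS1 held a similar share in the ridaforolimus line (14.7%), the everolimus line (12.9%) and parental cells (14.3%). The total of the 3 genes per kb was 44.6 ± 3.96 CPM in the ridaforolimus line, 30.9 ± 8.63 CPM in the everolimus line and 41.7 ± 0.849 CPM in parental cells, so the ridaforolimus line and parental cells differed in their total by less than the spread of the ridaforolimus libraries. The ratio of LCP1 counts to PLS3 counts within a library, which needs no scaling between libraries, was 1.85 and 1.80 in the ridaforolimus line. It was 0.325 and 0.367 in the everolimus line and 0.718 and 0.507 in parental cells. The plastin shares and ratios of the ridaforolimus line use the LCP1 level by which the group was chosen, so they are descriptions and not findings.

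FSCN1, which encodes fascin, the bundler of filopodia and invadopodia, had 130.3 and 186 CPM in the ridaforolimus line, 67.1 and 93.6 CPM in the everolimus line and 126 and 98.9 CPM in parental cells. The groups did not overlap, although ridaforolimus replicate 1 lay just above the higher parental library. FSCN1 lies on the plus strand of chromosome 7 (chr7:5592823-5606655). Its log2 fold change over parental cells was 0.49 ± 0.26 in the ridaforolimus line and -0.48 ± 0.26 in the everolimus line, the second with an adjusted p of 0.633 in edgeR's quasi-likelihood test. The direct difference, the ridaforolimus line over the everolimus line, was 0.98 ± 0.26 and did not pass (adjusted p = 0.149, edgeR), while DESeq2 gave an adjusted p of 0.0462. Of the 50-base stretches of FSCN1 transcripts, 4.89% also occur in its pseudogene FSCN1P1, so its counts are slightly uncertain. The paralogs FSCN2 and FSCN3, known from retina and testis, were tested too, and 0 of the 2 passed in any of the 3 comparisons with edgeR, DESeq2 or limma-voom. At an unadjusted p under 0.05 with edgeR there was 1, FSCN2 in the direct comparison.

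Among the ERM genes, MSN, which encodes moesin, had 1436 and 1616 CPM in the ridaforolimus line, 362 and 589 CPM in the everolimus line and 780.5 and 685 CPM in parental cells. As for LCP1, the 3 groups did not overlap, and their order was the same. MSN lies on the plus strand of chromosome X (chrX:65588377-65741931). Its log2 fold change over parental cells was 1.06 ± 0.26 in the ridaforolimus line, or 2.08-fold. For the everolimus line it was -0.62 ± 0.26 (95% interval -1.22 to -0.03, adjusted p = 0.549, edgeR's quasi-likelihood test). MSN was higher in the ridaforolimus line than in the everolimus line by 1.68 ± 0.27 (95% interval 1.07 to 2.29), with an adjusted p of 0.0403 in edgeR's test. This direct comparison shares its ridaforolimus libraries with the value by which LCP1 was chosen. The call was lost, with adjusted p between 0.0608 and 0.17 in edgeR's test, when either parental library, either ridaforolimus library or everolimus replicate 1 was left out. It was kept, at 0.0263 in edgeR's test, without everolimus replicate 2, and the fold change lay between 1.36 and 2.08 over these fits. Of the 50-base stretches of MSN transcripts, 3.66% also occur in other genes, nearly all in the pseudogene MSNP1.

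The promoters of MSN are shown for comparison with LCP1, since both genes had the same order of groups. RefSeq (GRCh38.p14) gives MSN 2 starts on the plus strand, chrX:65588127-65588426 and chrX:65667404-65667703. Capitals mark GGGCGG on either strand.
MSN start 1: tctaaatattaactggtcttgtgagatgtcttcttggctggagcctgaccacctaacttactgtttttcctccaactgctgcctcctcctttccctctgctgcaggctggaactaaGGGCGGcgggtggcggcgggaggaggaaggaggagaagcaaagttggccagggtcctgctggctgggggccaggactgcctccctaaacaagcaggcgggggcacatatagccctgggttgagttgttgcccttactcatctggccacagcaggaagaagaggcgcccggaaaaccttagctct
MSN start 2: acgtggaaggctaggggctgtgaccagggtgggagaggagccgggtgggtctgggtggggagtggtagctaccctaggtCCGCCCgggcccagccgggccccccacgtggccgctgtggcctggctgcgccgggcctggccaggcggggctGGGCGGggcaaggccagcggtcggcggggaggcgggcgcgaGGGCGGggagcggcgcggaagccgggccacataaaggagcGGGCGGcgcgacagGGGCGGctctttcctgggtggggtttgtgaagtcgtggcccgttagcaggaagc
Start 1 held 1 GC box at 57.0% GC and start 2 held 5 at 75.0% GC, against 1 GC box at 42.7% GC in LCP1. The other motifs, from the TATA box to the CArG box, were not found in either MSN window. Among the 16 promoters of the 8 genes, the AP-1 site was found in 1 window, of EZR, and the CArG box in 1 window, of ACTN1.

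EZR, which encodes ezrin, the ERM protein typical of epithelia, had 243 and 185 CPM in the ridaforolimus line, 235 and 324 CPM in the everolimus line and 447 and 376 CPM in parental cells. Both parental libraries were above all 4 libraries of the resistant lines, which overlapped with each other. EZR lies on the minus strand of chromosome 6 (chr6:158765741-158819412). Its log2 fold change over parental cells was -0.94 ± 0.24 in the ridaforolimus line and -0.56 ± 0.24 in the everolimus line, the second with an adjusted p of 0.561 in edgeR's quasi-likelihood test. The direct difference, the ridaforolimus line over the everolimus line, was -0.38 ± 0.24 (adjusted p = 0.526, edgeR).

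RDX, which encodes radixin, had 118 and 119 CPM in the ridaforolimus line, 151 and 160.5 CPM in the everolimus line and 132 and 131 CPM in parental cells. The groups did not overlap, and their order was the opposite of that of LCP1 and MSN. The differences were small: over parental cells, the log2 fold change was -0.15 ± 0.17 in the ridaforolimus line and 0.24 ± 0.17 in the everolimus line (adjusted p = 0.731, edgeR's quasi-likelihood test). Directly, it was -0.40 ± 0.17 in the ridaforolimus line over the everolimus line, with an adjusted p of 0.351 in edgeR's test. RDX, on the minus strand of chromosome 11 (chr11:109864295-110296722), overlaps ZC3H12C on the opposite strand, and since the strand setting of the counting is not given in the sources used here, its counts are uncertain.

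Per kb of exon, MSN made up 76.5 ± 4.31% of ERM transcripts in the ridaforolimus line, 43.4 ± 3.68% in the everolimus line and 47.0 ± 0.424% in parental cells (SD, n = 2 each). EZR made up 19.3 ± 4.24% in the ridaforolimus line, 46.2 ± 1.41% in the everolimus line and 47.1 ± 0.99% in parental cells. Per kb, moesin and ezrin transcripts were thus near parity in the everolimus line and in parental cells, and moesin led in the ridaforolimus line. From CPM not divided by exon length, MSN made up 51.6% and EZR 30.8% in the everolimus line. In parental cells these shares were 57.5% for MSN and 32.2% for EZR, so the parity rests on the exon lengths used. The ratio of MSN counts to EZR counts within a library was 5.90 and 8.74 in the ridaforolimus line, 1.54 and 1.82 in the everolimus line and 1.75 and 1.82 in parental cells. Merlin, the related tumour suppressor encoded by NF2, had 36.7 and 30.4 CPM in the ridaforolimus line, 29.3 and 45.1 CPM in the everolimus line and 36.1 and 41.7 CPM in parental cells, and the 3 groups overlapped.

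**Figure D2:**
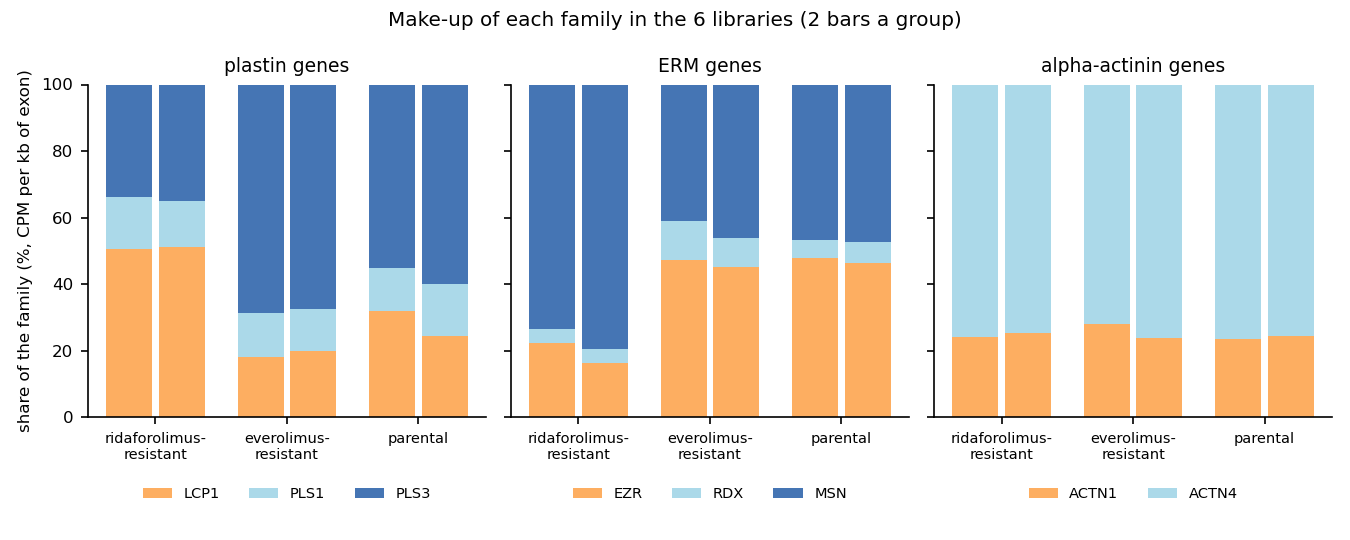
Share of each gene in its family (%, from CPM per kb of exon, vertical axis from 0 to 100) for plastins, ERM proteins and alpha-actinins; each bar is 1 library, 2 a group, in the order ridaforolimus-resistant, everolimus-resistant, parental. LCP1 and MSN take the largest share of their families in the ridaforolimus line (50.9% and 76.5% on average), while ACTN4 holds 74.1% to 76.0% on average in all 3 groups. The LCP1 share in the ridaforolimus line rests on the level by which LCP1 was chosen.

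The proportion of the 2 alpha-actinins overlapped between the groups. ACTN4, on the plus strand of chromosome 19 (chr19:38647649-38731583), had 1017 and 841 CPM in the ridaforolimus line, 989 and 1551 CPM in the everolimus line and 1449 and 1469 CPM in parental cells. ACTN1, on the minus strand of chromosome 14 (chr14:68874143-68979440), had 561 and 498 CPM in the ridaforolimus line, 673 and 844 CPM in the everolimus line and 781 and 828 CPM in parental cells. For both genes the ridaforolimus libraries were below the parental ones and the everolimus libraries spread over the parental level, with everolimus replicate 1 low. Over parental cells, ACTN4 differed by -0.65 ± 0.25 and ACTN1 by -0.60 ± 0.20 on the log2 scale in the ridaforolimus line. In the everolimus line ACTN4 differed by -0.20 ± 0.25 and ACTN1 by -0.09 ± 0.20, with adjusted p-values of 0.863 and 0.938 in edgeR's quasi-likelihood test. Without everolimus replicate 1 these became 0.09 for ACTN4 and 0.07 for ACTN1. Directly, the ridaforolimus line over the everolimus line, ACTN4 stood at -0.45 ± 0.25 (adjusted p = 0.480) and ACTN1 at -0.52 ± 0.20 (adjusted p = 0.310), both in edgeR's test. ACTN4 made up 75.3 ± 0.99% of alpha-actinin transcripts per kb in the ridaforolimus line, 74.1 ± 3.04% in the everolimus line and 76.0 ± 0.566% in parental cells (SD, n = 2 each). The ACTN4 to ACTN1 count ratio was 1.81 and 1.69 in the ridaforolimus line, 1.47 and 1.84 in the everolimus line and 1.85 and 1.77 in parental cells, and the groups overlapped. Of the 50-base stretches of ACTN4 transcripts, 13.6% also occur in other genes, mostly in its neighbour CAPN12, and 4.24% of those of ACTN1 do.

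Compared per kb of exon, the levels of the 9 genes were ordered differently in the groups. In the ridaforolimus line MSN led with 256 CPM per kb, ahead of ACTN4 (152), EZR (64.1), ACTN1 (49.8), FSCN1 (42.8), LCP1 (22.7), PLS3 (15.3), RDX (13.9) and PLS1 (6.59). In the everolimus line the order was ACTN4 (208 CPM per kb), EZR (83.6), MSN (79.7), ACTN1 (71.4), FSCN1 (21.8), PLS3 (21.0), RDX (18.3), LCP1 (5.95) and PLS1 (3.99). In parental cells it was ACTN4 (239 CPM per kb), EZR and MSN (both 123), ACTN1 (75.7), FSCN1 (30.4), PLS3 (23.9), RDX (15.4), LCP1 (11.8) and PLS1 (5.99). Per kb, LCP1 thus stood above PLS3 and RDX in the ridaforolimus line and below both in the other groups. Without division by exon length, LCP1 had 115 CPM and RDX 118 CPM in the ridaforolimus line. The order of LCP1 and RDX there thus rests on the exon lengths used, and the counts of RDX are uncertain. Neighbours in these orders that differed by less than the sum of their SDs were EZR, ACTN1 and FSCN1 in the ridaforolimus line. In the everolimus line they were EZR, MSN and ACTN1, then FSCN1, PLS3 and RDX, and then LCP1 and PLS1, and in parental cells EZR and MSN, and FSCN1 and PLS3.

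**Figure D3:**
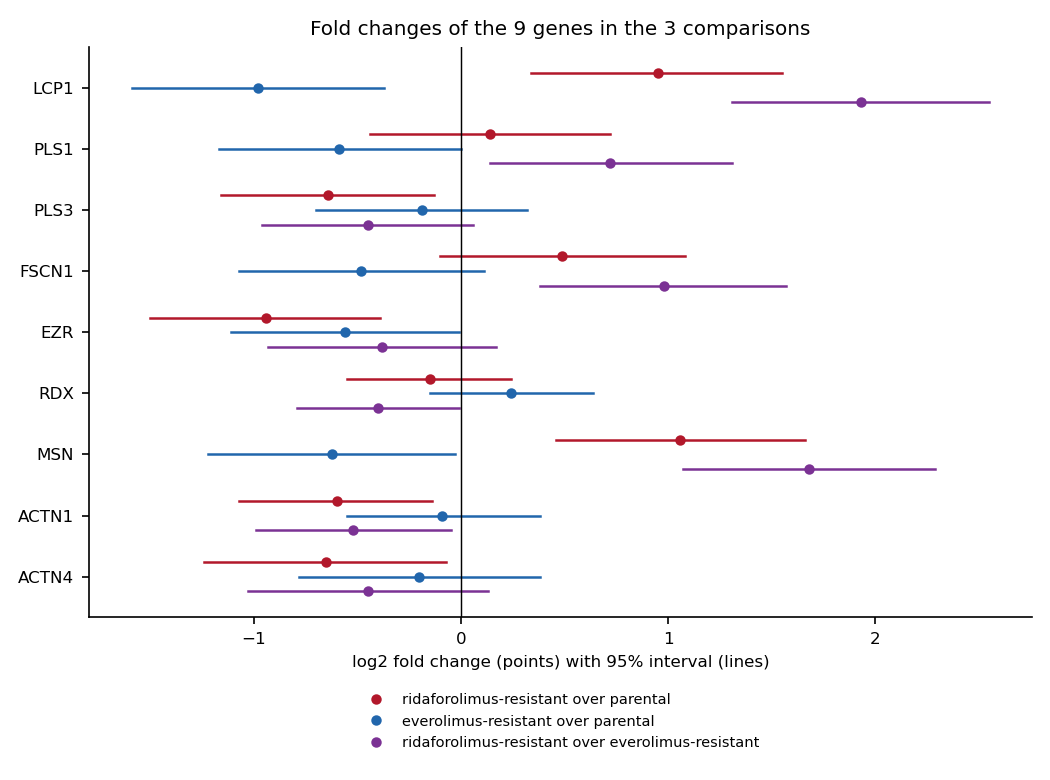
Log2 fold change (points, horizontal axis) with its 95% interval (lines) for each of the 9 genes in the 3 comparisons, from edgeR's fit to all 6 libraries. LCP1, FSCN1 and MSN lie right of 0 for the ridaforolimus-resistant line over parental cells and left of 0 for the everolimus-resistant line over parental cells.

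In the comparison of the everolimus line with parental cells, 0 of the 9 genes passed an adjusted p of 0.05 in edgeR's test, where 0.00471% of all genes tested did. DESeq2 (0.693% of all genes) and limma-voom (0.00471%) called 0 of the 9 as well. At an unadjusted p under 0.05 in edgeR's test, 3 of the 9 were lower in the everolimus line, namely LCP1, EZR and MSN, where 8.79% of all genes passed and 4.53% passed as lower. In 6 of the 9 the groups did not overlap (41.1% of all genes), with 5 lower (20.5%) and RDX higher (20.6%). The median of the 9 log2 fold changes was -0.48, with 1 of 9 above 0, beside 0.02 and 52.3% above 0 over all genes tested. Over genes with a mean of at least 10 CPM, as all 9 had, the median was -0.02 and 46.9% were above 0. Beside these values stands a difference between the libraries: all 9 genes were lower in everolimus replicate 1 than in replicate 2, by a median of -0.51 on the log2 scale. Among the 10300 genes with a mean of at least 10 CPM, 57.6% were lower in that library, with a median of -0.08, and the part of this in the everolimus values was not tested.

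In the direct comparison, the ridaforolimus line over the everolimus line, MSN alone of the 8 genes other than LCP1 passed with edgeR, where 0.744% of all genes tested did. DESeq2 called MSN and FSCN1 among these 8 (3.10% of all genes), and limma-voom called MSN (0.532%). At an unadjusted p under 0.05 in edgeR's test, PLS1, FSCN1, RDX, MSN and ACTN1 passed, which is 5 of the 8, where 14.1% of all genes did. In 7 of the 9 genes the lines did not overlap (41.2% of all genes), with LCP1, PLS1, FSCN1 and MSN higher (20.9%) and PLS3, RDX and ACTN1 lower (20.4%). In the comparison of the ridaforolimus line with parental cells, which is taken to have led to the choice of the group, the 9 genes were not tested. In 8 of the 9 the groups did not overlap there (49.4% of all genes), with LCP1, FSCN1 and MSN higher (25.1%) and PLS3, EZR, RDX, ACTN1 and ACTN4 lower (24.3%). The counts of 7 and 8 genes without overlap both include LCP1, which was chosen for its level in the ridaforolimus line. They are descriptions only.

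The chromosomal neighbours of the 9 genes were compared with them, since MSN and PLS3 both lie on chromosome X. Among the protein-coding genes with a mean of at least 10 CPM within 5 Mb of MSN, 15 of 15 had a positive log2 fold change in the ridaforolimus line over parental cells. Their median was 1.05 with quartiles of 0.82 and 1.32, so MSN's own 1.06 lay in their middle. In the everolimus line over parental cells the same neighbours had a median of 0.00, with 8 of 15 above 0, and MSN at -0.62 lay below their lower quartile of -0.13. Around PLS3 the picture was turned: 0 of 18 neighbours were above 0 in the ridaforolimus line over parental cells, and their median was -0.72 beside -0.64 for PLS3. They had a median of -0.08 in the everolimus line, beside -0.19 for PLS3. In the ridaforolimus line over the everolimus line, the comparison in which MSN passed, 15 of 15 neighbours of MSN were above 0. Their median was 0.98 with quartiles of 0.69 and 1.32, beside 1.68 for MSN. Around PLS3, 0 of 18 were above 0 in this direct comparison, with a median of -0.75 beside -0.45 for PLS3. Over all 10300 genes with a mean of at least 10 CPM, 44.6% had a positive value in the direct comparison (median -0.05). In the ridaforolimus line over parental cells 42.3% did (median -0.07). Nearest to MSN, LAS1L, a ribosome biogenesis factor, stood at 0.50, ZC3H12B at 0.98 and YIPF6 at 1.05. ZC4H2, a zinc finger gene before MSN, rose by 1.83 in the ridaforolimus line over parental cells (adjusted p = 0.0211, edgeR's quasi-likelihood test). That call was lost, with adjusted p from 0.106 to 0.317 in edgeR's test, without either parental library or ridaforolimus replicate 2. Whether the region's values and those of MSN and PLS3 have a common origin was not tested.

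**Figure D4:**
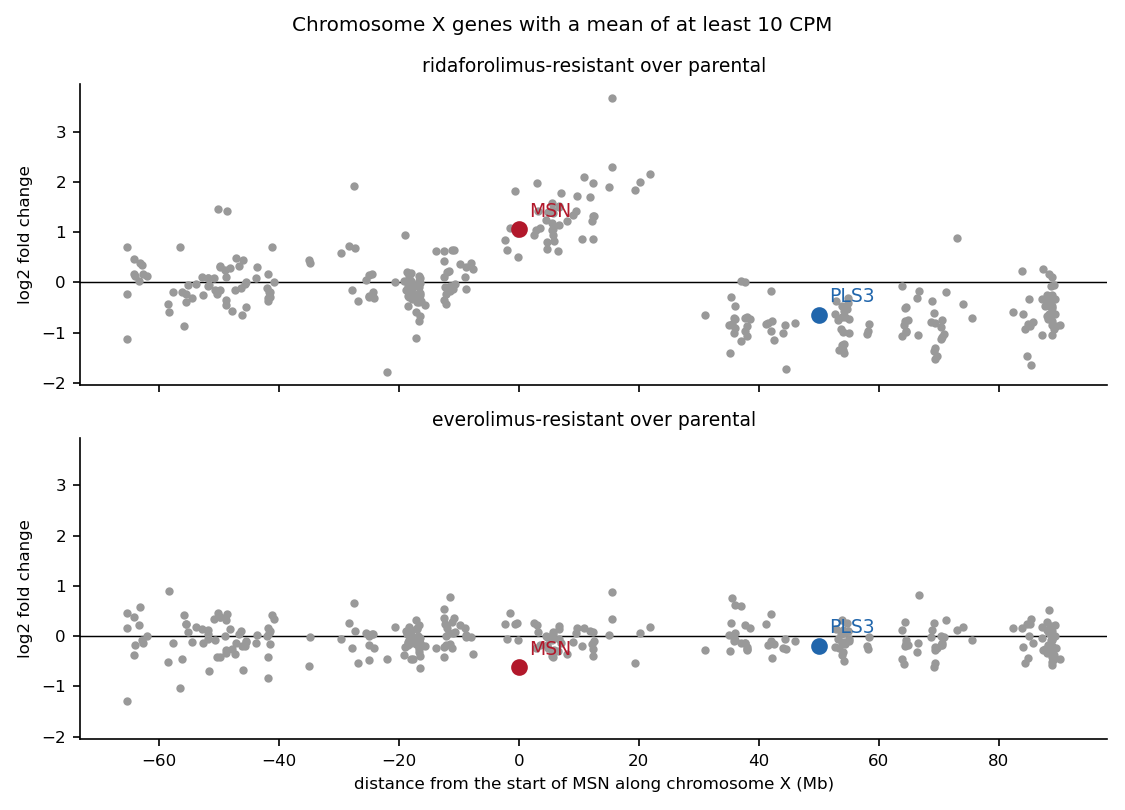
Log2 fold change (vertical axis) of each protein-coding chromosome X gene with a mean of at least 10 CPM against its distance in Mb from the start of MSN (horizontal axis), for the ridaforolimus-resistant line (top) and the everolimus-resistant line (bottom) over parental cells. In the top panel MSN (1.06) lies in a stretch of genes above 0 and PLS3 (-0.64) in a stretch below 0; neither stretch is seen in the bottom panel.

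The other genes of the group stood differently to their neighbourhoods. Around LCP1, 15 of 31 genes within 5 Mb were above 0 in the ridaforolimus line over parental cells, with a median of -0.00 and quartiles of -0.20 and 0.15, beside 0.95 for LCP1. Their median was 0.05 in the everolimus line with a lower quartile of -0.11, beside -0.98 for LCP1. LCP1 was outside the quartiles of its neighbours in both lines. In the ridaforolimus line its place is tied to the choice of LCP1 by its level there and is not a finding. Its nearest tested neighbours ZC3H13 and LRCH1 were at 0.01 and 0.25 in the ridaforolimus line. Quartiles by definition leave out many of the neighbours themselves, so for every gene here a place outside them is a description. EZR at -0.94 and ACTN1 at -0.60 also lay below the lower quartiles of their neighbours in the ridaforolimus line, -0.43 for EZR and -0.18 for ACTN1. ACTN4 at -0.65 lay below a lower quartile of -0.52 among 114 neighbours, of which 16 were above 0. FSCN1 at 0.49 lay above an upper quartile of 0.31. In the everolimus comparison PLS1 at -0.59, FSCN1 at -0.48 and EZR at -0.56 lay below the lower quartiles of their neighbours, which were -0.08 for PLS1, -0.04 for FSCN1 and -0.22 for EZR. RDX lay within the quartiles of its neighbours in both lines, with 0.24 beside a median of 0.27 in the everolimus line.

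**Figure D5:**
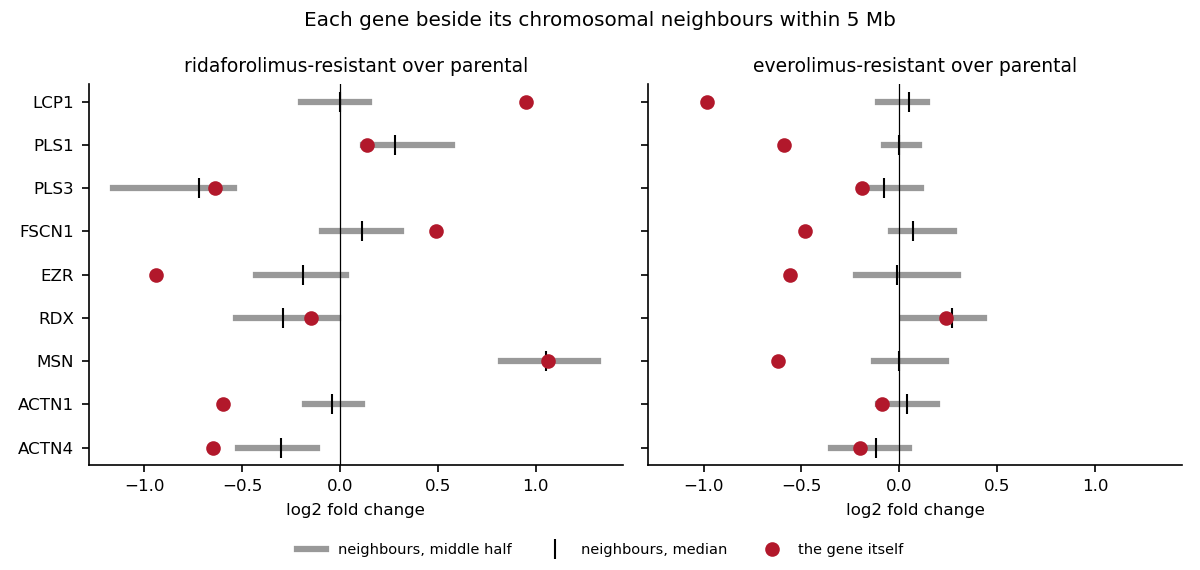
Log2 fold change (horizontal axis) of each of the 9 genes (red point) beside the median (black tick) and quartile range (grey bar) of the other protein-coding genes within 5 Mb with a mean of at least 10 CPM, for the ridaforolimus-resistant line (left) and the everolimus-resistant line (right) over parental cells. MSN and PLS3 lie within the bars of their neighbours in the left panel, while LCP1 lies outside its bar in both panels. LCP1 was chosen for its level in the ridaforolimus line, so its place in the left panel is not a finding.

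The genes whose levels followed LCP1 most closely were found from the Pearson correlation of log2 CPM over the 6 libraries among 9798 protein-coding genes with a mean of at least 10 CPM. This is a description over 6 points that share their libraries and groups, and 151 genes (1.54%) had an r of at least 0.9. The 5 closest were PKIG, an inhibitor of protein kinase A (r = 0.991), the HSP40 co-chaperone DNAJA2 (0.990), the FGF receptor adaptor FRS3 (0.989), the prostaglandin reductase PTGR1 (0.987) and C10orf88 (0.985). Their differences were smaller than that of LCP1: PTGR1 had the widest of the 5, with 56.6 and 49.7 CPM in the ridaforolimus line, 20.6 and 30.9 CPM in the everolimus line and 39.6 and 37.8 CPM in parental cells. MSN ranked 10th of the 9798 genes with r = 0.981, and FSCN1 ranked 103rd with r = 0.917. PLS1 had r = 0.846, RDX -0.904, ACTN1 -0.606, PLS3 -0.402, ACTN4 -0.326 and EZR -0.215.

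Lists of 206 further genes of the actin cytoskeleton, of which 184 were tested, were read beside the 9. The lists were chosen with earlier results of these data known, so the numbers that passed are descriptions. In the ridaforolimus line over parental cells, 80 of the 184 were above 0 (43.5%) with a median of -0.06, and 2 passed with edgeR, where 0.32% of all genes did, as well as 2 with limma-voom (0.339% of all genes) and 11 with DESeq2 (2.71%). For the everolimus line 77 were above 0 (41.8%) with a median of -0.07, and 0 passed with edgeR or limma-voom, 2 with DESeq2 (0.693% of all genes), and 29 at an unadjusted p under 0.05 with edgeR (8.79% of all genes). In the direct comparison 93 were above 0 (50.5%), the median was 0.00, and 1 passed with edgeR (0.744% of all genes), 0 with limma-voom (0.532%) and 8 with DESeq2 (3.10%). With edgeR, 38 of the 184 had an unadjusted p under 0.05 in the ridaforolimus line over parental cells (14.5% of all genes). In the direct comparison 36 did (14.1% of all genes). Over all genes with a mean of at least 10 CPM, the share above 0 was 42.3% in the ridaforolimus line, 46.9% in the everolimus line and 44.6% in the direct comparison.

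GSN, which encodes gelsolin, a calcium-dependent severing and capping protein of actin filaments, showed the same order as LCP1. It had 52.3 and 92.5 CPM in the ridaforolimus line, 21.2 and 18.8 CPM in the everolimus line and 44.3 and 32.9 CPM in parental cells, and the groups did not overlap. GSN was higher in the ridaforolimus line than in the everolimus line by 1.86 ± 0.30 (adjusted p = 0.0403, edgeR's quasi-likelihood test), a call lost, with adjusted p from 0.0817 to 0.128 in edgeR's test, without either parental library, either everolimus library or ridaforolimus replicate 2. Both other calls were tensins, which tie integrin adhesions to actin: in the ridaforolimus line over parental cells TNS1 rose by 3.39 ± 0.46 (adjusted p = 0.029) and TNS4 fell by 2.94 on the log2 scale (adjusted p = 0.0109, edgeR). The TNS1 call was lost without any 1 of the parental or ridaforolimus libraries, and the TNS4 call without either parental library, with adjusted p of 0.0661 to 0.318 for TNS1 and 0.0771 to 0.0906 for TNS4 in edgeR's test.

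Among 21 tested partners and kinases of ERM proteins, 6 were above 0 in the ridaforolimus line and 9 in the everolimus line over parental cells, with medians of -0.15 and -0.09, and 0 passed with edgeR or limma-voom in any comparison. DESeq2 called CD44 and S100P in the ridaforolimus line over parental cells and 0 in the other comparisons. At an unadjusted p under 0.05 there were 6 in the ridaforolimus line (14.5% of all genes), 2 in the everolimus line (8.79%) and 4 in the direct comparison (14.1%). CD44, the hyaluronan receptor that ERM proteins bind, had 301 and 425 CPM in the ridaforolimus line, 150.1 and 266 CPM in the everolimus line and 174 and 134 CPM in parental cells. Both ridaforolimus libraries were above all others, but the log2 fold change of 1.24 ± 0.31 over parental cells did not pass (adjusted p = 0.155, edgeR's quasi-likelihood test). S100P, a calcium-binding protein that activates ezrin, had 0.838 and 1.02 CPM in the ridaforolimus line, 7.10 and 0.727 CPM in the everolimus line and 31.9 and 22.2 CPM in parental cells. Its log2 fold change was -4.85 ± 0.87 in the ridaforolimus line over parental cells (adjusted p = 0.0706, edgeR).

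Other crosslinkers of actin gave 15 of 41 above 0 in the ridaforolimus line and 17 of 41 in the everolimus line over parental cells. With edgeR and limma-voom 0 passed in both lines, and DESeq2 called CNN2 in the ridaforolimus line and LIMA1 in the everolimus line. At an unadjusted p under 0.05 with edgeR there were 4 in the ridaforolimus line, where 14.5% of all genes passed, and 7 in the everolimus line, where 8.79% did. LIMA1, which crosslinks and stabilises filaments, had 53.1 and 77.9 CPM in the everolimus line and 137 and 142 CPM in parental cells, a log2 fold change of -1.09 ± 0.25 (adjusted p = 0.332, edgeR's quasi-likelihood test). The calponin CNN2 had 103 and 102 CPM in the ridaforolimus line and 189 and 221 CPM in parental cells, with an adjusted p of 0.102 in edgeR's test. Of 15 tropomyosins and non-muscle myosin genes, 5 were above 0 in the ridaforolimus line (median -0.27). There, 0 passed with edgeR or limma-voom and 5 had an unadjusted p under 0.05 with edgeR (14.5% of all genes), while DESeq2 called MYLK, a myosin light chain kinase, and the light chain MYL12A. Of 20 tested genes of filopodia and formins, 11 were above 0 in the ridaforolimus line (median 0.01) and 12 in the everolimus line (median 0.16) over parental cells. With edgeR and limma-voom 0 passed in both lines, while 8 in the ridaforolimus line (14.5% of all genes) and 4 in the everolimus line (8.79%) had an unadjusted p under 0.05 with edgeR. DESeq2 called VASP, FHOD1 and DAAM2 in the ridaforolimus line and 0 in the everolimus line. VASP, which extends filaments at filopodial tips, had 109 and 90.1 CPM in the ridaforolimus line, 99.2 and 123 CPM in the everolimus line and 197 and 185 CPM in parental cells. It was below the parental libraries in all 4 resistant libraries, at -0.94 ± 0.20 in the ridaforolimus line (adjusted p = 0.110, edgeR) and -0.78 ± 0.20 in the everolimus line (adjusted p = 0.405, edgeR). The formin FHOD1 went the other way, with 76.1 and 86.2 CPM in the ridaforolimus line, 57.4 and 68.9 CPM in the everolimus line and 43.5 and 42.7 CPM in parental cells. It was above the parental libraries in all 4 resistant libraries, at 0.91 ± 0.19 in the ridaforolimus line (adjusted p = 0.101, edgeR) and 0.55 ± 0.19 in the everolimus line (adjusted p = 0.507, edgeR). The actin gene ACTB had 4457 and 3858 CPM in the ridaforolimus line, 3324 and 7109 CPM in the everolimus line and 5114 and 5627 CPM in parental cells, and its everolimus libraries lay on either side of the parental ones.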

How the data were processed

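RNA of 6 libraries of MDA-MB-231 was measured by RNA sequencing with a stranded mRNA kit, per the labels' protocols. The authors deposited raw counts per Ensembl gene, without normalisation or pooling. Per the submitters' processing notes, the tools included STAR 2.7.9a and HTSeq 0.13.5, with Trim Galore 0.6.6 and DESeq2 also named, and the build GRCh38; which strand was counted, and with which annotation, is not given in the sources used here. A symbol table matched 62625 of 69292 IDs. GENCODE 29 gave positions for 58279 IDs and exon lengths, taken as the union of a gene's exons. No column of values was left unmapped.

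Changes were tested two-sided with edgeR 4.0.16 in R 4.3.3 (TMM, filterByExpr by group, glmQLFit, glmQLFTest) on all 6 libraries and 3 groups, with 3 residual degrees of freedom, and adjusted by Benjamini-Hochberg over 21223 genes at 0.05. Intervals are 95% intervals. DESeq2 1.42.0 and limma 3.58.1 (voom) were other tools, and other scalings, filters, fits and left-out libraries were tried. Intervals cover the spread between libraries, and no molecular identifiers are stated.

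Each of the 9 genes was named, with list genes past the threshold, up to 4 more per list by largest change among genes averaging 10 CPM or more, the 5 genes likest to LCP1, and 3 neighbours each side of LCP1, MSN and PLS3. Not all of them are printed. The members and lists were chosen with earlier results of these data known.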

Additional observations from a re-analysis of the deposited data

Results flagged for a closer look

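For 7 genes every library of one resistant line lay above both parental libraries and every library of the other line below both. The direct difference is the log2 fold change of the ridaforolimus line over the everolimus line, with the adjusted p of edgeR's quasi-likelihood test. LCP1 differed by 1.93, with 0.95 in the ridaforolimus line and -0.98 in the everolimus line over parental cells, and this difference was not tested because LCP1 was chosen for its level in the ridaforolimus line. MSN differed by 1.68 (adjusted p = 0.0403, edgeR) and GSN, gelsolin, by 1.86 (adjusted p = 0.0403, edgeR). FSCN1 differed by 0.98 (adjusted p = 0.149), the cofilin phosphatase gene SSH3 by 0.85 (adjusted p = 0.167) and, in the opposite direction, RDX by -0.40 (adjusted p = 0.351) and PARVA, a partner of integrin-linked kinase, by -0.94 (adjusted p = 0.0655), all with edgeR. All 7 genes were read in the same 6 libraries.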

How the results depend on the processing

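The count of all genes called with edgeR was 68 in the ridaforolimus line over parental cells, 1 in the everolimus line over parental cells and 158 in the direct comparison. In the same order it was 575, 147 and 658 with DESeq2, 1195, 493 and 1362 with no filter on low counts, and 127, 0 and 0 with only the groups compared. A filter of 5 CPM in 2 libraries gave 0 in the everolimus line and 81 in the direct comparison. With 1 library left out it ran from 1 to 276, from 0 to 3 and from 19 to 123. The cause was not tested.

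Replicate numbers did not pair the libraries alike in all groups. Deviations of same-numbered libraries correlated at 0.511 between parental cells and the everolimus line. Between the ridaforolimus line and parental cells they correlated at -0.378, and between the ridaforolimus line and the everolimus line at -0.363. With the replicate block, 28, 0 and 49 genes were called. With the ridaforolimus numbers exchanged, an alternative chosen after seeing the data, it was 814, 150 and 1044.

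Of 17 tested values of the 9 genes under 255 alternatives, 240 kept direction and side of the threshold, 7 lost the call, all of MSN in the direct comparison, 5 gained one and 3 reversed. The reversals were PLS3 at 0.06, ACTN1 at 0.07 and ACTN4 at 0.09 in the everolimus line over parental cells without everolimus replicate 1, the highest of ranges with 1 library left out whose lowest were -0.50, -0.26 and -0.57. MSN had adjusted p = 0.123 with only the groups compared and 0.0801 with the block in edgeR's test. Over all alternatives MSN ranged from 5.87e-11 to 0.17 and FSCN1 in the direct comparison from 0.00375 to 0.531. LCP1 in the everolimus line had 0.011 with no filter on low counts, the lowest of a range up to 1.00. LCP1 in the ridaforolimus line over parental cells stayed above 0, the lowest being 0.78.

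From CPM not divided by exon length, LCP1 made up 54.0% of plastins in the ridaforolimus line and 21.7% in the everolimus line, and MSN 82.1%, 51.6% and 57.5% of ERM transcripts in the ridaforolimus line, the everolimus line and parental cells, since the genes differ in length. With 2 libraries a group, the spread rests on few values.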
